A study of Homo sapiens with 18 samples.

Results

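Transcripts of 36 genes for pyruvate entry, the tricarboxylic acid (TCA) cycle, glutamate use and the malate-aspartate shuttle were followed in PC-3 cells after brief fluid shear stress. The genes were a list of NCBI Gene IDs chosen with earlier results of these data known, with the succinate dehydrogenase subunits left out. All 36 were among the 28395 Gene IDs of the count table. All 36 also passed the filter on low counts, among 15189 genes in the shear comparisons and 14804 in the comparisons of static cells. IDH1, the cytosolic NADP-dependent isocitrate dehydrogenase, was the member that tested lower in sheared than in static cells at both 12 h and 24 h.

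Pyruvate enters mitochondria through a carrier made of MPC1 and MPC2 and is turned into acetyl-CoA by the pyruvate dehydrogenase complex, which the kinases PDK1 to PDK4 switch off by phosphorylation and phosphatases switch back on. The cycle then carries citrate through isocitrate, alpha-ketoglutarate, succinyl-CoA, succinate, fumarate and malate to oxaloacetate, while pyruvate carboxylase and glutamate refill it. Citrate leaves mitochondria through SLC25A1 and feeds lipid synthesis in the cytosol, a route much studied in prostate cancer because normal prostate epithelium secretes citrate.

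PC-3 is an established line from a human prostate cancer. Its cells were detached and either pushed through a syringe needle, which exposes them to shear (sheared), or left in suspension meanwhile (static). Both were then kept in serum-free medium with insulin, transferrin, selenium and albumin, in wells coated with poly-HEMA to prevent attachment, and sampled after 3, 12 or 24 h. Each of the 6 groups of treatment and time had 3 libraries of cytosolic RNA. Per the design text, each replicate number at a time stands for 1 starting pool that was divided between both treatments, and every time had pools of its own, so shear was compared within the 9 pools. All pools were of this 1 line, and the static cells too were in suspension, so no group stood for attached cells.

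Depth ranged from 16400487 to 25862360 counts per library. KRT8, KRT18, EPCAM, CD44 and VIM, expected in PC-3, were present in all libraries, at 48.8 CPM or more (CPM is a gene's count scaled by the library size and, unless stated, a TMM normalisation factor). KLK3 and KLK2, markers of androgen-dependent prostate cells, had at most 1 and 0 counts, though TMPRSS2 of the same list reached 106 CPM. Of the markers of other cell types, PTPRC and CDH5 reached at most 0.539 and 0.256 CPM, while PECAM1 had 9.70 to 109 CPM and COL1A1 at least 12.1 CPM. Replicate 3 of the sheared 24 h group stood apart from the rest. Its normalisation factor was 0.721 against 0.888 to 1.11 in the others, and its nuclear-retained RNAs summed to 344 CPM against 49.0 to 172 in the other 24 h libraries. The batch date in the labels was one for 3 h and another for 12 h and 24 h.

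Promoters of 4 starts are shown. They are those of IDH1, whose lower level in sheared than in static cells was the most stable shear difference. The others are those of PDK1 and PDK3, whose static levels were higher at 12 h than at 3 h and at 24 h. The 3 h libraries carry another batch date. All 4 are RefSeq windows of GRCh38.p14 that run from 250 bases before to 50 bases after an annotated start. Of the 36 genes, 34 had at least 1 such window. Capitals mark ACGTG or its reverse complement CACGT, the core of the element bound by hypoxia-inducible factors. The PDK1 window lies at chr2:172555840-172556139 on the plus strand and the PDK3 window at chrX:24465036-24465335 on the plus strand. The 2 IDH1 windows lie at chr2:208255022-208255321 and chr2:208254409-208254708 on the minus strand.
PDK1: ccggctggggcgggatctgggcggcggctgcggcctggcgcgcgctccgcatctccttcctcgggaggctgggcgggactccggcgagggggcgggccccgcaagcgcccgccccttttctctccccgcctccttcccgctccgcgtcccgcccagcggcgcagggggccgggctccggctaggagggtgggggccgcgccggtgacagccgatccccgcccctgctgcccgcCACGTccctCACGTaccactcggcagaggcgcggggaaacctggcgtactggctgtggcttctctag
PDK3: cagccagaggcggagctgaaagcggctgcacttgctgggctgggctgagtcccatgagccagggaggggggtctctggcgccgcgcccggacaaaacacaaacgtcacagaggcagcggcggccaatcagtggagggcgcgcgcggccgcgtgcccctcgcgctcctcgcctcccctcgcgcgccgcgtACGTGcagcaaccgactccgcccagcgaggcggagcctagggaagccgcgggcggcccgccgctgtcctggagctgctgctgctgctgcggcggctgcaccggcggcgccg
IDH1, first start: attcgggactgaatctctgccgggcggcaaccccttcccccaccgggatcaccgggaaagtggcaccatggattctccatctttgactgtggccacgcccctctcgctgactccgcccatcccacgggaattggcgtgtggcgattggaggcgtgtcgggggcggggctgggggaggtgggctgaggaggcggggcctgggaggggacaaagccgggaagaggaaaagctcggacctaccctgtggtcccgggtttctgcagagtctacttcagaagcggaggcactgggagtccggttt
IDH1, second start: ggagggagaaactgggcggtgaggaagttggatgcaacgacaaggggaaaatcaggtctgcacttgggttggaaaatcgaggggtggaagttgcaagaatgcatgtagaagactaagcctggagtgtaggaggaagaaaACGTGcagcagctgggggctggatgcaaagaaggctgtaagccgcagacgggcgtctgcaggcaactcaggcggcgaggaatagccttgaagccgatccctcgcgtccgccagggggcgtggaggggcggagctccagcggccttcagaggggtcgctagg
The core began at -17 and -8 from the start in PDK1, at -61 in PDK3 and at -111 in the second IDH1 window, while the first IDH1 window held none. PDK1 has another window at chr2:172555123-172555422, not printed, which held none either.

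Windows of 11 of the 34 genes held the core on either strand: PDHB, DLAT, PDHX, PDK1, PDK2, PDK3, PC, IDH1, IDH3G, GOT2 and ME3. By start, 12 of 47 windows held it (25.5%), against 21.4% of all 35116 windows in the table. The core is part of the E-box CACGTG, which was in 8.51% of the members' windows and 7.26% of all. CCGGAAG, a site of ETS factors, was in 10.6% and 10.3%, and GCATGCGC, part of the NRF1 site, in 2.13% and 3.05%. TCACNCCAC, a sterol response element, was in 2.13% and 1.13%, and GTAAACA, a FOXO site, in 0 of 47 and 3.42%. These letter matches describe the windows only.

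Levels per kilobase of exon were highest for FH, MDH2 and CS. In static cells at 3 h, FH, which hydrates fumarate to malate, had 129 ± 11.6 CPM per kb (mean ± SD, n = 3, as in all levels given in this form). MDH2, the mitochondrial malate dehydrogenase, had 90.7 ± 10.5 CPM per kb. CS, which joins acetyl-CoA and oxaloacetate to citrate, had 67.8 ± 4.78 CPM per kb. Without length scaling CS led with 434 ± 30.6 CPM, before MDH2 with 330 ± 38.1 and FH with 276 ± 24.8 CPM. Merged exons span 2142 bases in FH, 3641 in MDH2 and 6402 in CS. The lowest levels were those of the pyruvate dehydrogenase kinase PDK4 at 1.11 ± 0.204, and of the mitochondrial malic enzymes ME2 at 2.35 ± 0.319 and ME3 at 2.47 ± 0.292 CPM per kb. On this scale ME2 and ME3 did not differ beyond their spread. That rests on the length used, as ME2 has 16243 bases of merged exon and ME3 3838. Without length scaling ME2 had 38.1 ± 5.18 CPM and ME3 9.50 ± 1.12 CPM in these libraries. MPC1 at 14.5 ± 0.627 CPM and PC at 18.8 ± 0.837 CPM then lay below ME2.

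The order differed between the times in suspension. The 3 h libraries carry another batch date, so time and batch date cannot be told apart in comparisons with 3 h. SLC25A1, the citrate carrier, was the fifth highest in static cells at 3 h with 50.6 ± 4.24 CPM per kb and the highest at 24 h with 124 ± 7.42 CPM per kb, above MDH2 at 96.8 ± 21.1. FH fell in the same ranking from the first to the third place, with 67.0 ± 10.6 CPM per kb at 24 h. Among the kinases of pyruvate dehydrogenase, PDK2 was the highest in static cells at 3 h with 7.35 ± 0.0581 CPM per kb, followed by PDK3 with 5.06 ± 0.787 and PDK1 with 3.82 ± 0.218. At 12 h PDK3 led with 15.9 ± 1.56 CPM per kb, and PDK1 with 8.04 ± 0.754 and PDK2 with 7.44 ± 0.820 were within their spread of each other. This order rests on the length used: PDK1 has 14883 bases of merged exon, PDK2 5481 and PDK3 4951. Without length scaling PDK1 led, with 56.8 ± 3.24 CPM at 3 h and 120 ± 11.2 CPM at 12 h. At those times PDK2 had 40.3 ± 0.318 and 40.8 ± 4.50 CPM, and PDK3 25.1 ± 3.89 and 78.8 ± 7.75 CPM. In the plot of levels per kilobase, the members span from 1.11 to 129.

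**Figure D1:**
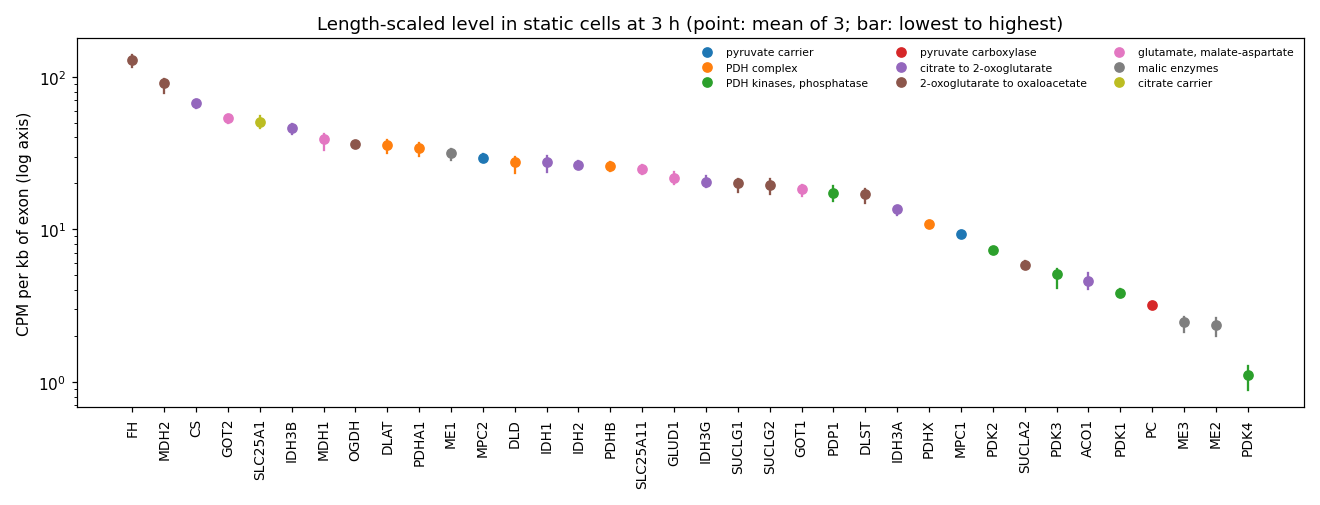
Length-scaled level of each of the 36 genes in static cells at 3 h, in CPM per kb of exon on a log axis. Points are means of 3 libraries, bars run from the lowest to the highest library and colours give the role. FH, MDH2 and CS lie at the top and PDK4 at the bottom.

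Whether brief shear altered these transcripts was compared first at 3 h. No member passed an adjusted p of 0.05 in edgeR's quasi-likelihood test, against 1.12% of all tested genes higher and 0.342% lower in sheared cells, and no member had an unadjusted p below 0.05. Log2 fold changes of the 36 ran from -0.22 to 0.51 with a median of 0.04, where the median of all genes was 0.01. The smallest p belonged to PDK4, with 5.35, 3.97 and 5.73 CPM in static and 5.76, 5.59 and 10.8 CPM in sheared replicates 1 to 3. Sheared PDK4 was above static in all 3 pools, but the groups overlapped, and its log2 fold change was 0.51 ± 0.25 (SE, edgeR adjusted p = 0.564). SLC25A1 had 0.21 ± 0.12 (edgeR adjusted p = 0.661) and IDH2, the mitochondrial NADP-dependent isocitrate dehydrogenase, 0.19 ± 0.12 (edgeR adjusted p = 0.732). A fit of the 3 h libraries alone called GLUD1 and SLC25A1 higher and GOT1 lower, beside 816 higher and 650 lower of 14470 genes.

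**Figure D2:**
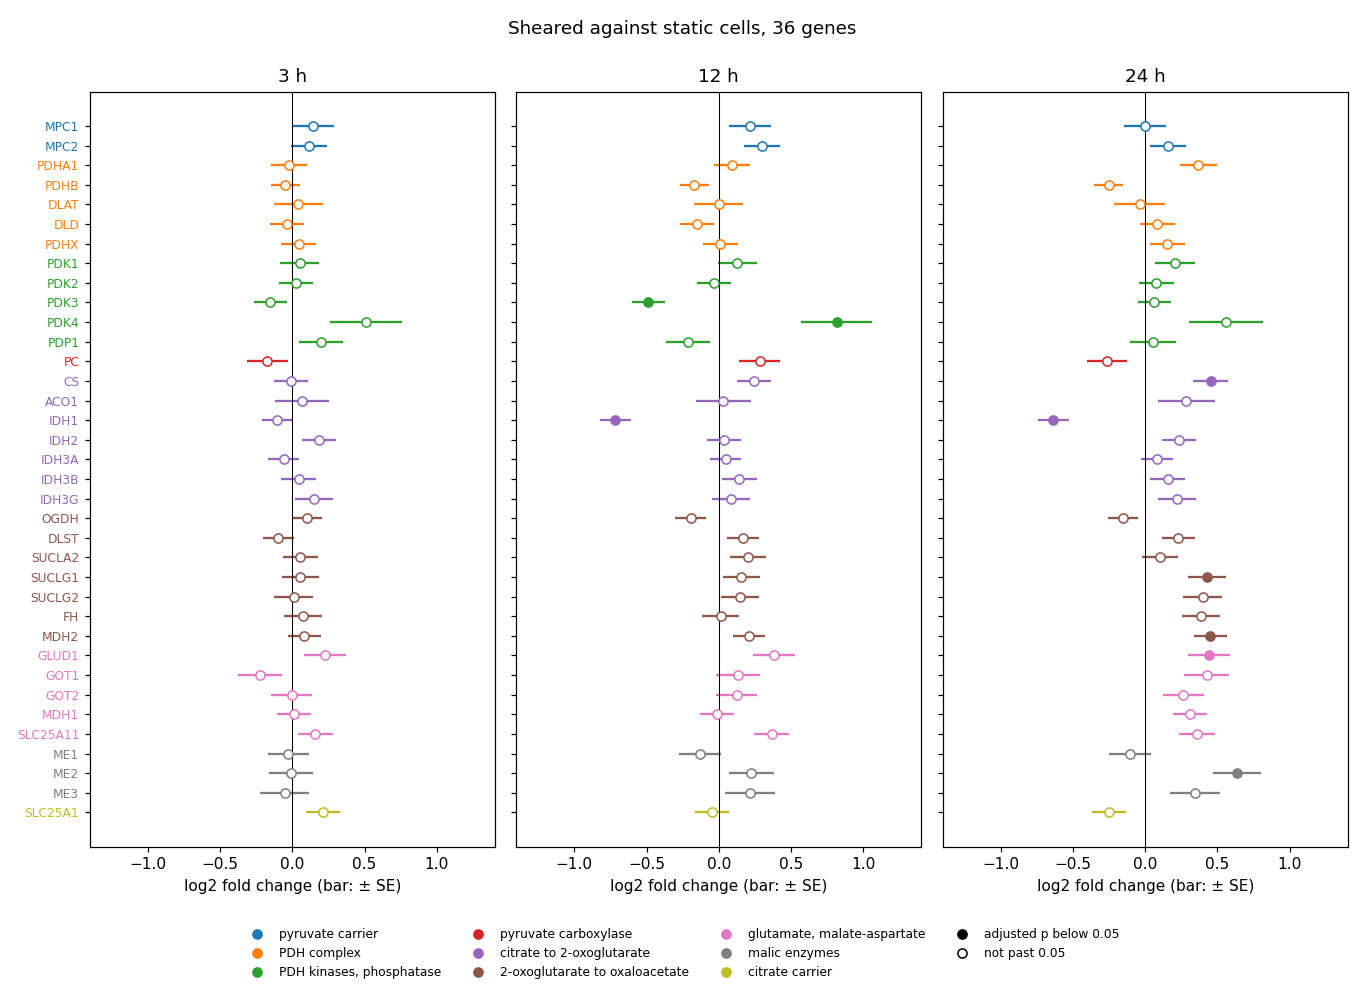
Log2 fold change of sheared over static cells for the 36 genes at 3 h, 12 h and 24 h, with bars of 1 SE either side and colours by role; filled points passed an adjusted p of 0.05 in edgeR. At 3 h no point is filled, at 12 h IDH1, PDK3 and PDK4 are, and at 24 h IDH1 lies low and CS, SUCLG1, MDH2, GLUD1 and ME2 lie high.

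At 12 h after shear, 1 of 36 members was higher (2.78%, against 6.29% of all genes) and 2 were lower (5.56%, against 4.55%), shares near the background. The median log2 fold change of the members was 0.11, beside -0.01 for all genes. IDH1 fell most. It had 190, 200 and 167 CPM in static and 133, 108 and 100 CPM in sheared replicates 1 to 3. Every sheared library was below every static one, at 0.696, 0.542 and 0.600 of the static level of its own pool. The log2 fold change was -0.71 ± 0.11 (SE, edgeR adjusted p = 5.88e-04).

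IDH1 turns isocitrate into alpha-ketoglutarate outside mitochondria and makes NADPH there. Its gene spans chr2:208236227-208266074 on the minus strand (GENCODE 29, GRCh38). At 3 h its levels overlapped, with 142, 135 and 111 CPM in static and 117, 128 and 115 CPM in sheared replicates 1 to 3 (log2 fold change -0.11 ± 0.11, edgeR adjusted p = 0.872). At 24 h static replicates had 203, 252 and 217 CPM and sheared ones 123, 167 and 144 CPM, again without overlap. The 24 h log2 fold change was -0.64 ± 0.11 (edgeR adjusted p = 6.30e-04), with pool ratios of 0.605, 0.662 and 0.666. Static levels rose from 3 h to 12 h while sheared levels at 12 h and 24 h lay between 100 and 167 CPM. These are RNA levels of a mixed culture, in which fewer cells with the transcript and less of it per cell cannot be told apart. Both calls held with each of the 9 pools left out in turn and without the pool term.

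Other isocitrate dehydrogenases did not pass the test at 12 h or 24 h. IDH2 had 0.04 ± 0.12 and 0.24 ± 0.12 on the log2 scale, and the subunits of the NAD-dependent enzyme, IDH3A, IDH3B and IDH3G, lay between 0.05 and 0.14 at 12 h and between 0.08 and 0.22 at 24 h. Aconitase ACO1, which also binds iron-responsive elements, had 0.03 ± 0.19 and 0.28 ± 0.20. The difference of the IDH1 shear effect between 12 h and 3 h was -0.61 ± 0.15 and missed the threshold (edgeR adjusted p = 0.0559). It was the nearest to a call of all members: 0 of 36 differed between 12 h and 3 h, against 1.41% of all genes, and 0 of 36 between 24 h and 12 h, against 0.665%. At an unadjusted p below 0.05 there were 2 members in each, and DESeq2 called IDH1 for 12 h against 3 h and no member for 24 h against 12 h.

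**Figure D3:**
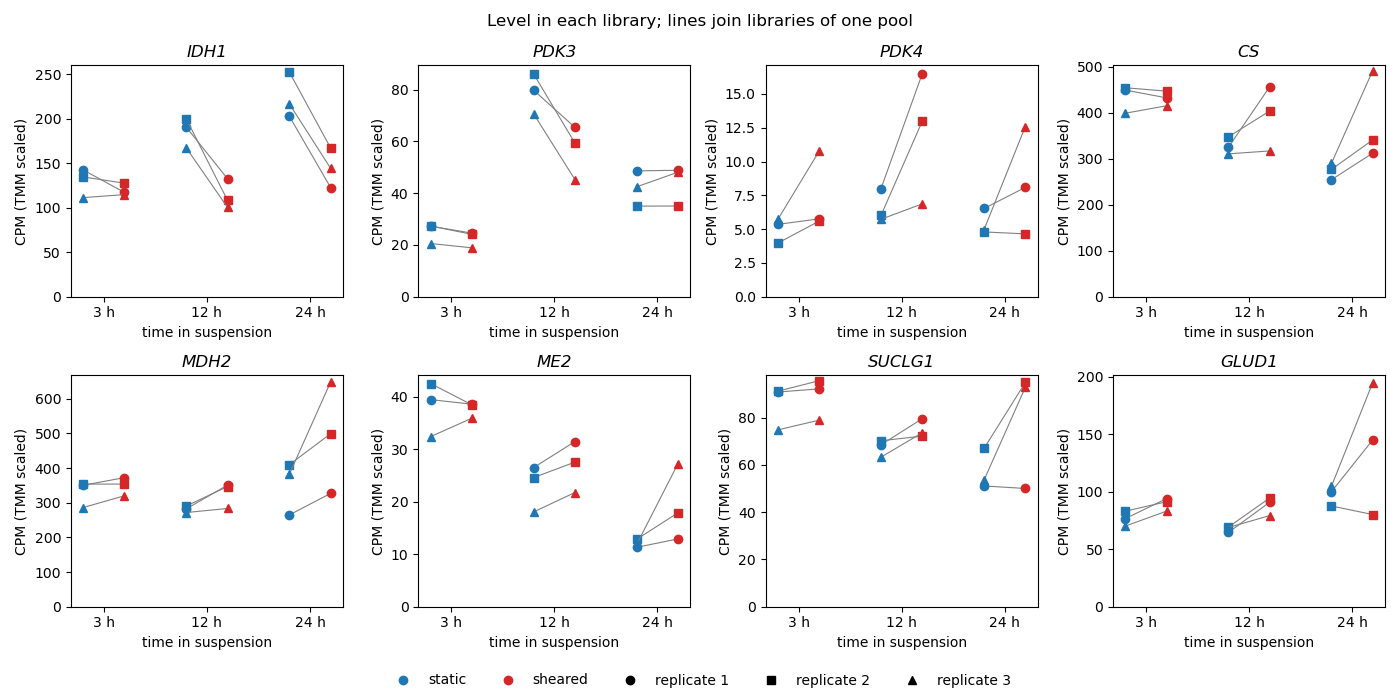
Level of 8 members in each library, in CPM with TMM scaling, by time in suspension. Blue marks static and red sheared libraries, the symbol gives the replicate and a line joins the libraries of 1 pool. All 3 lines fall for IDH1 at 12 h and 24 h; at 24 h the steepest lines for CS, MDH2 and ME2 are those of replicate 3.

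Among the kinases of pyruvate dehydrogenase, PDK3 tested lower and PDK4 higher in sheared than in static cells at 12 h. PDK3 had 79.8, 86.0 and 70.6 CPM in static and 65.5, 59.4 and 45.3 CPM in sheared replicates 1 to 3, so that every sheared library lay below every static one. Its log2 fold change was -0.49 ± 0.11 (edgeR adjusted p = 0.0109). PDK4 rose, with 8.00, 6.02 and 5.73 CPM in static and 16.5, 12.98 and 6.87 CPM in sheared replicates. It was higher in all 3 pools, by ratios of 2.06, 2.16 and 1.20, though the lowest sheared library lay below the highest static one (0.82 ± 0.24, edgeR adjusted p = 0.0407). Fold changes of PDK1 (0.13 ± 0.14) and PDK2 (-0.03 ± 0.12) and of the phosphatase PDP1 (-0.21 ± 0.15) did not pass.

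Both kinase calls were near the limit. PDK3 lost its call without 12 h replicate 2 (edgeR adjusted p = 0.0894) or 3 (0.0817) and without the pool term (0.189). PDK4 lost it in 6 of 9 settings that left out a pool: each of the 3 h replicates 1 to 3, 12 h replicates 1 and 2, and 24 h replicate 1 (edgeR adjusted p up to 0.306), and also without the pool term (0.198). At 24 h PDK3 had 48.6, 35.0 and 42.5 CPM in static and 48.9, 35.1 and 48.1 CPM in sheared replicates, a log2 fold change of 0.06 ± 0.12. The PDK3 shear effect at 24 h minus that at 12 h was 0.55 ± 0.16 (edgeR adjusted p = 0.214). PDK4 at 24 h had 6.53, 4.79 and 4.97 CPM in static and 8.09, 4.65 and 12.6 CPM in sheared replicates (0.56 ± 0.26, edgeR adjusted p = 0.148).

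The members nearest to a call at 12 h were SLC25A11, the carrier that exchanges malate for alpha-ketoglutarate (0.37 ± 0.12, edgeR adjusted p = 0.0632), GLUD1 (0.38 ± 0.14, 0.102) and MPC2 (0.30 ± 0.13, 0.137). GLUD1, the glutamate dehydrogenase that yields alpha-ketoglutarate, had 64.6, 69.2 and 68.9 CPM in static and 90.8, 94.5 and 79.2 CPM in sheared replicates at 12 h, without overlap. At 3 h it had 76.6, 83.1 and 70.1 CPM in static and 94.0, 91.3 and 83.1 CPM in sheared replicates, where the groups were barely apart, with both edges at 83.1 CPM. Without 24 h replicate 2 or without 24 h replicate 3, GLUD1 and SLC25A11 both passed at 12 h, which made 3 members higher. Over all genes those fits called 1218 of 15529 and 1553 of 15448 higher.

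At 24 h, 5 of 36 members were higher in sheared cells (13.9%, against 9.13% of all genes) and IDH1 alone was lower (2.78%, against 8.07%). Fold changes were positive for 29 of 36, with a median of 0.21 beside -0.02 for all genes. The 5 were CS, MDH2, SUCLG1, GLUD1 and ME2, which act at the entry of the cycle, its last step, the succinyl-CoA step, glutamate entry and the mitochondrial conversion of malate to pyruvate. All 5 calls were lost without 24 h replicate 3, and also without the pool term and in a fit of the 24 h libraries alone. Without 24 h replicate 3 the median of the 36 was 0.04, IDH1 stayed lower and DLAT was called lower too.

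CS had 254, 277 and 290 CPM in static and 312, 341 and 491 CPM in sheared replicates 1 to 3, higher in every pool and without overlap between groups. Pool ratios were 1.23, 1.23 and 1.70, the log2 fold change was 0.45 ± 0.12 (edgeR adjusted p = 0.0148), and without 24 h replicate 3 it was 0.32 (0.109). MDH2 had 265, 410 and 382 CPM in static and 327, 499 and 648 CPM in sheared replicates. Its groups overlapped because pools differed, but the sheared library was the higher in each pool, by ratios of 1.23, 1.22 and 1.70. The log2 fold change was 0.45 ± 0.11 (edgeR adjusted p = 0.0116), and 0.31 (0.0919) without 24 h replicate 3.

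ME2 had 11.3, 12.9 and 11.9 CPM in static and 12.9, 17.9 and 27.2 CPM in sheared replicates. Ratios were 1.14, 1.39 and 2.29, so the third pool held most of the difference (log2 fold change 0.63 ± 0.17, edgeR adjusted p = 0.0143; 0.36 and 0.181 without 24 h replicate 3). SUCLG1, the shared alpha subunit of succinyl-CoA ligase, had 51.1, 67.0 and 53.6 CPM in static and 50.0, 94.8 and 92.8 CPM in sheared replicates. Replicate 1 did not follow the others, at a ratio of 0.979 (0.43 ± 0.13, edgeR adjusted p = 0.0330). GLUD1 had 99.99, 87.6 and 105 CPM in static and 145, 80.2 and 195 CPM in sheared replicates. Replicate 2 went down at a ratio of 0.915 while replicates 1 and 3 went up (0.44 ± 0.15, edgeR adjusted p = 0.0465). Without 24 h replicate 3 the log2 fold changes of SUCLG1 and GLUD1 were 0.26 and 0.23 (edgeR adjusted p = 0.244 and 0.365).

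SUCLG1 also lost its call without 3 h replicate 2 and without 24 h replicate 2, and GLUD1 without any of the 3 h replicates 1 to 3, 12 h replicate 1 or 2 and 24 h replicate 1. The summed level of the 36 genes was 4872 CPM in sheared 24 h replicate 3, against 3280 to 3907 CPM in the other 24 h libraries. Scaled by total counts alone it was 3511 CPM, within the 2932 to 3768 CPM of the others. That library also had the low normalisation factor and the high nuclear-retained RNA given above, whose part in these rises was not tested. GLUD1 shares much of its sequence with GLUD2, and reads of such a pair can be split by the counting.

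Just past the limit at 24 h were SUCLG2, the GTP-forming partner of SUCLG1 (0.40 ± 0.14, edgeR adjusted p = 0.0508), SLC25A11 (0.36 ± 0.12, 0.0521) and FH (0.39 ± 0.13, 0.0530). DESeq2 called these 3, PDHA1 and GOT1 in addition, which made 10 members higher, beside 1575 of the 13439 genes in that fit. The malate-aspartate shuttle enzymes GOT1, GOT2 and MDH1 had log2 fold changes of 0.43, 0.26 and 0.31 and none passed in edgeR. Of the alpha-ketoglutarate dehydrogenase complex, OGDH had -0.15 ± 0.11 and DLST 0.23 ± 0.11, and the ADP-forming ligase subunit SUCLA2 had 0.10 ± 0.12.

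Transcripts of the pyruvate dehydrogenase complex itself did not pass at any time after shear. At 24 h the E1 alpha subunit PDHA1 had 0.37 ± 0.13 (edgeR adjusted p = 0.0576) and the E1 beta subunit PDHB -0.25 ± 0.10 (0.0903), so point estimates of the subunits of 1 enzyme had opposite signs. The transacetylase DLAT had -0.04 ± 0.18, the dehydrogenase DLD 0.08 ± 0.12 and the E3-binding protein PDHX 0.15 ± 0.12. Carrier subunits MPC1 and MPC2 had 0.00 ± 0.15 and 0.15 ± 0.12. PC, which makes oxaloacetate from pyruvate, had -0.26 ± 0.14, SLC25A1 had -0.25 ± 0.12, and the malic enzymes ME1 and ME3 had -0.11 ± 0.14 and 0.34 ± 0.17. At 24 h SLC25A1 had 248, 277 and 253 CPM in static and 240, 218 and 198 CPM in sheared replicates (edgeR adjusted p = 0.158).

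The authors' deposited tables, one per time, gave the members the same signs as edgeR in 36 of 36 cases at each time. In the authors' deposited table no member passed an adjusted p of 0.05 at 3 h, where 0.951% of its genes did in either direction. In the authors' deposited table for 12 h, IDH1 alone passed (log2 fold change -0.71, adjusted p = 1.64e-04), beside 5.54% of genes. In the authors' deposited table for 24 h, IDH1 (-0.62, adjusted p = 8.43e-04) and ME2 (0.71, adjusted p = 0.0417) passed, beside 9.34%. There CS had an adjusted p of 0.0601 and MDH2 one of 0.130 in the authors' deposited table.

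Change with time in suspension was compared in the 9 static libraries. From 3 h to 12 h, 7 of 36 members rose (19.4%, against 21.7% of all genes) and 12 fell (33.3%, against 22.9%). Their median log2 fold change was -0.22, beside 0.01 for all genes. The 3 h libraries carry another batch date, so time and batch date cannot be told apart in this step. From 12 h to 24 h, where the date was shared, 5 rose and 5 fell (13.9% each, against 16.9% and 15.6%), with a median of -0.06. Both comparisons share the 12 h libraries.

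**Figure D4:**
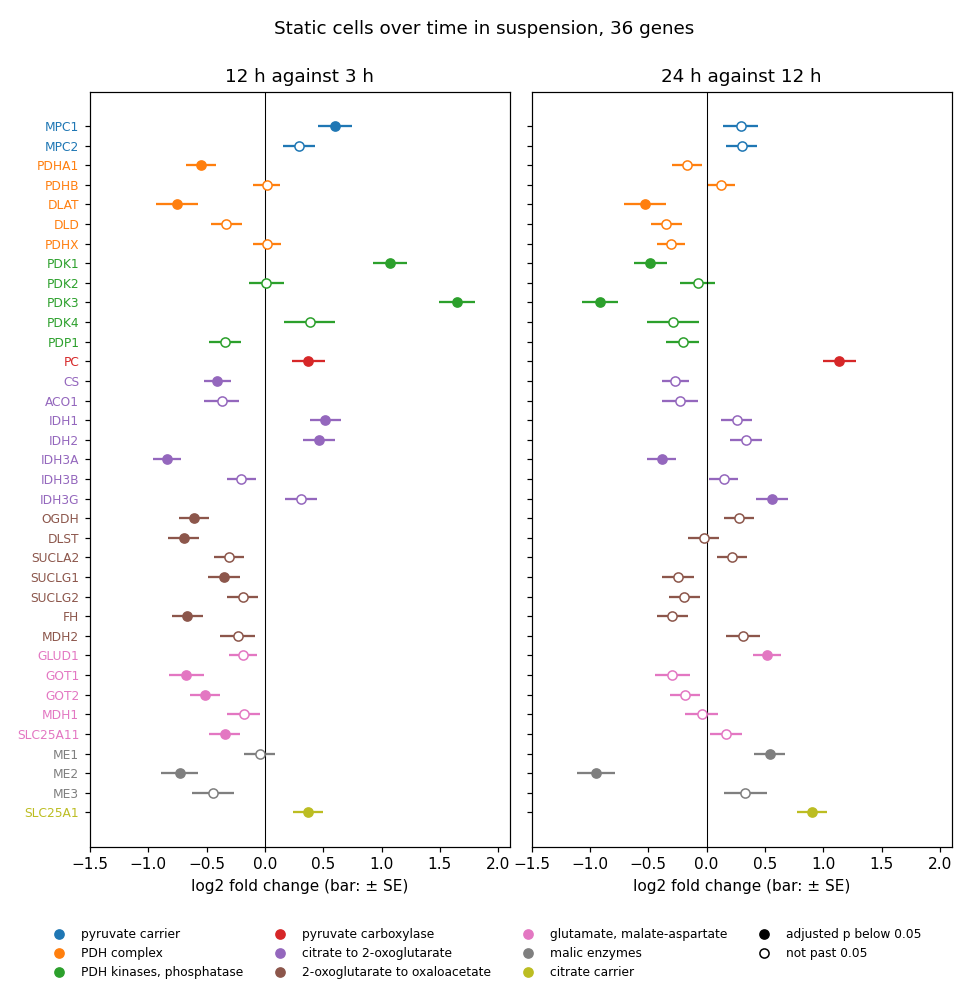
Log2 fold change of the 36 genes in static cells, 12 h over 3 h and 24 h over 12 h, with bars of 1 SE either side, colours by role and filled points past an adjusted p of 0.05 in edgeR. PDK3 and PDK1 lie highest in the first panel and fall in the second, where PC and SLC25A1 lie highest.

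PDK3 rose most from 3 h to 12 h. Static replicates 1 to 3 had 27.3, 27.3 and 20.6 CPM at 3 h, 79.8, 86.0 and 70.6 CPM at 12 h, and 48.6, 35.0 and 42.5 CPM at 24 h. The 3 times did not overlap, and 12 h was the highest. The log2 fold change was 1.65 ± 0.16 (edgeR adjusted p = 3.77e-07) for 12 h over 3 h and -0.92 ± 0.15 (3.21e-04) for 24 h over 12 h. The lower PDK3 level in sheared cells at 12 h thus came at the time when static PDK3 was highest.

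PDK1 also rose and then fell. It had 56.5, 60.2 and 53.7 CPM at 3 h, 118, 132 and 109 CPM at 12 h and 104, 70.1 and 84.7 CPM at 24 h in static replicates. The rise was 1.07 ± 0.14 (edgeR adjusted p = 1.47e-05) and the later fall -0.48 ± 0.14 (0.0160). PDK2 stayed between 29.8 and 46.3 CPM in all 9 static libraries and PDK4 between 3.97 and 8.00 CPM. Neither passed the test in either step.

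Pyruvate carboxylase and the citrate carrier rose late. PC had 18.4, 19.8 and 18.3 CPM at 3 h, 21.6, 24.8 and 26.9 CPM at 12 h and 48.4, 62.1 and 52.2 CPM at 24 h, with no overlap between times. Its log2 fold change was 0.37 ± 0.14 (edgeR adjusted p = 0.0389) in the first step and 1.14 ± 0.14 (1.88e-05) in the second. SLC25A1 had 115, 105 and 97.4 CPM, then 131, 122 and 159 CPM, then 248, 277 and 253 CPM. It rose by 0.37 ± 0.13 (0.0259) and by 0.91 ± 0.13 on the log2 scale (edgeR adjusted p = 7.60e-05). In the second step GLUD1 rose by 0.52 ± 0.12, the cytosolic malic enzyme ME1, a source of NADPH, by 0.54 ± 0.13 and IDH3G by 0.56 ± 0.13 (edgeR adjusted p = 0.00410, 0.00578 and 0.00463).

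**Figure D5:**
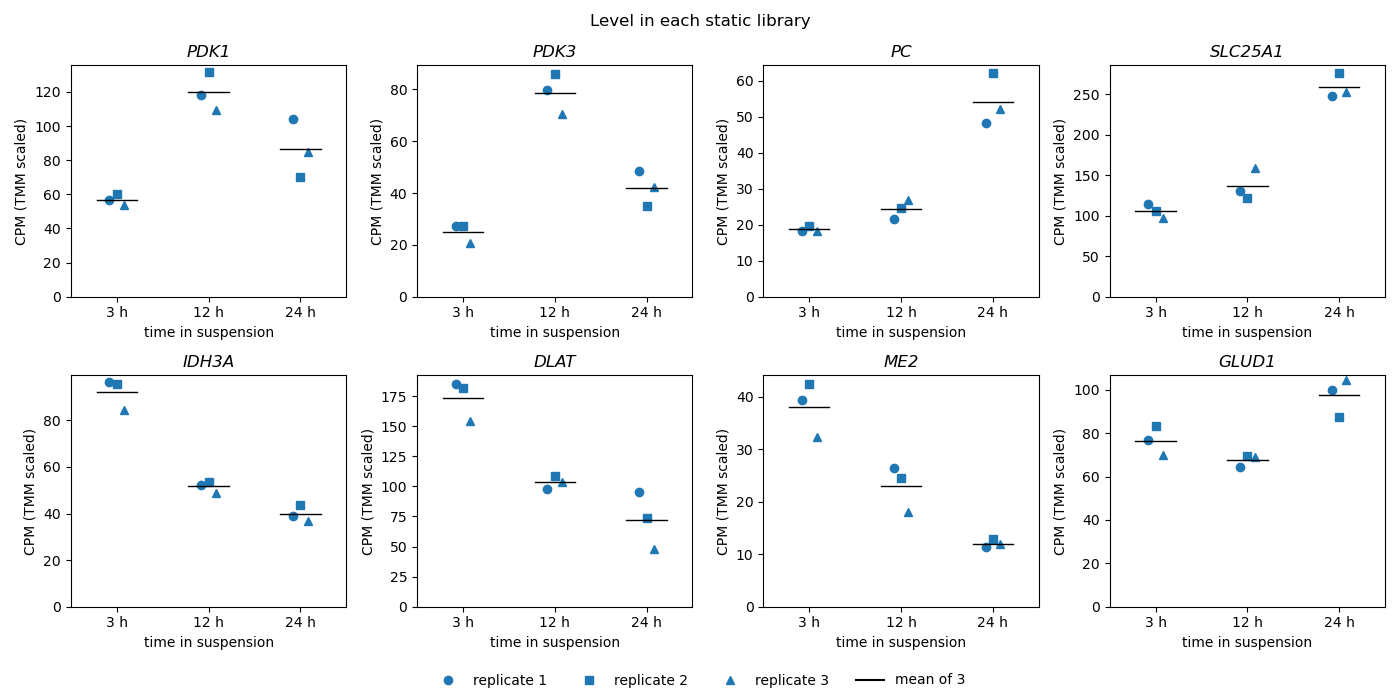
Level of 8 members in the 9 static libraries, in CPM with TMM scaling, by time; symbols give the replicate number and lines the mean of 3. PDK1 and PDK3 peak at 12 h, PC and SLC25A1 are highest at 24 h, and IDH3A, DLAT and ME2 are lower at each later time.

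Transcripts of IDH3A, DLAT and ME2 fell in both steps. IDH3A, the catalytic subunit of the NAD-dependent isocitrate dehydrogenase, had 96.4, 95.8 and 84.5 CPM at 3 h, 52.3, 53.7 and 49.0 CPM at 12 h and 38.9, 43.9 and 37.0 CPM at 24 h. The times did not overlap (-0.84 ± 0.12, edgeR adjusted p = 3.55e-05, then -0.38 ± 0.12, 0.0254). DLAT had 185, 182 and 154 CPM, then 98.1, 108 and 104 CPM, then 95.2, 74.0 and 48.0 CPM, a fall at each step (-0.75 ± 0.18 and -0.53 ± 0.18, edgeR adjusted p = 0.00286 and 0.0354). ME2 had 39.4, 42.5 and 32.4 CPM, then 26.5, 24.6 and 18.1 CPM, then 11.3, 12.9 and 11.9 CPM. It also fell at each step, by 0.73 ± 0.16 and by 0.95 ± 0.17 on the log2 scale (edgeR adjusted p = 0.00130 and 4.66e-04).

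The other falls from 3 h to 12 h were those of DLST (-0.70), FH (-0.67), GOT1 (-0.67), OGDH (-0.61), PDHA1 (-0.55), GOT2 (-0.52), CS (-0.41), SUCLG1 (-0.35) and SLC25A11 (-0.34). Of the 7 genes between alpha-ketoglutarate and oxaloacetate, 4 fell and 3 did not pass, against 22.9% of all genes that fell. Time and batch date cannot be told apart in this step, and the call of SUCLG1, among the 4, depended on single libraries. The other rises were those of MPC1 (0.60 ± 0.15, edgeR adjusted p = 0.00355), IDH1 (0.52 ± 0.13, 0.00426) and IDH2 (0.47 ± 0.14, 0.0114). The nearest uncalled members were DLD (-0.33, edgeR adjusted p = 0.0514), PDP1 (-0.34, 0.0544) and ACO1 (-0.37, 0.0550). The remaining uncalled members lay between -0.44 (ME3) and 0.38 (PDK4), with PDK2 (0.01), PDHB (0.02) and PDHX (0.02) nearest to 0.

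Some of these calls turned on single static libraries. In the first step PC lost its call without any of 5 libraries (3 h replicates 1 to 3 and 12 h replicates 2 and 3), SUCLG1 without any of 5 (3 h replicates 1 and 2 and 12 h replicates 1 to 3), and SLC25A11 without any of 4 (replicates 1 and 2 at 3 h and at 12 h). SLC25A1 lost it without 3 h replicate 2 or 3 or 12 h replicate 3, and IDH2 without 3 h replicate 1. In the second step DLAT lost its call without any of the 12 h replicates or 24 h replicate 2 or 3. IDH3A lost it without 12 h replicate 1 or 2 or 24 h replicate 3, and PDK1 without 12 h or 24 h replicate 2. The number that fell in the second step was 2 without 12 h replicate 2 and 3 without 12 h replicate 1 or 24 h replicate 3.

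Nearest to a call from 12 h to 24 h were DLD (-0.34 ± 0.13, edgeR adjusted p = 0.0560), PDHX (-0.31 ± 0.12, 0.0637) and IDH2 (0.34 ± 0.14, 0.0703), and all uncalled members lay between -0.34 and 0.34. Counts of some members can hold reads of a gene on the other strand, since the strand setting of the counting is not given in the sources used here. In GENCODE 29, exons of PDK2 overlap those of SAMD14 over 38.6% of their length, IDH3A those of ACSBG1 over 38.2%, MPC2 those of DCAF6 over 22.5% and PDHA1 those of MAP3K15 over 21.3%. For PC the overlap with LRFN4 was 10.5%, for GLUD1 with SHLD2 13.2% and for IDH1 with IDH1-AS1 1.99%.

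A second list held 36 neighbouring genes of the same pathways, of which 35 were tested (PCK1 was not). After shear none passed at 3 h, and at 12 h 1 was higher and 1 lower than in static cells, against 6.29% and 4.55% of all genes. The lower one was the pyruvate dehydrogenase phosphatase PDP2. It had 13.4, 16.3 and 10.9 CPM in static and 6.75, 5.16 and 7.68 CPM in sheared replicates at 12 h, without overlap. Its log2 fold change was -1.05 ± 0.22 (edgeR adjusted p = 0.00607), and it lost its call without 12 h replicate 2 (0.133). It was not called without the pool term either (edgeR adjusted p = 0.0825).

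At 24 h, 3 of the 35 were higher and 4 lower in sheared than in static cells, against 9.13% and 8.07% of all genes. GLUL, the glutamine synthetase, had 181, 208 and 213 CPM in static and 132, 107 and 119 CPM in sheared replicates (-0.75 ± 0.11, edgeR adjusted p = 2.23e-04). Its groups did not overlap, and the call held with every pool left out and without the pool term. PDP2 had -1.07 ± 0.22 (edgeR adjusted p = 0.00310), the lactate dehydrogenase gene LDHB 0.65 ± 0.14 (0.00336) and SLC25A13, an aspartate-glutamate carrier of the shuttle, -0.50 ± 0.14 (0.0221). LDHB had 217, 259 and 233 CPM in static and 297, 337 and 503 CPM in sheared replicates, without overlap. ACLY, which cleaves citrate in the cytosol, was lower (-0.58 ± 0.17, edgeR adjusted p = 0.0304) and LDHA was higher (0.37 ± 0.12, 0.0435). SLC25A13 lost its call without 24 h replicate 1 or 3 and ACLY without 24 h replicate 1 or 2. LDHA lost it without 24 h replicate 1 or 3, any 3 h replicate or 12 h replicate 1. Without the pool term PDP2, SLC25A13, ACLY and LDHA were not called (edgeR adjusted p = 0.0748, 0.144, 0.0801 and 0.250).

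In static cells, 4 of the 35 rose and 17 fell from 3 h to 12 h, against 21.7% and 22.9% of all genes, in the step where time and batch date cannot be told apart. From 12 h to 24 h 8 rose and 4 fell, against 16.9% and 15.6%. SLC1A5, a glutamine transporter of the plasma membrane, had 139, 147 and 142 CPM at 3 h, 48.4, 50.5 and 61.5 CPM at 12 h and 147, 154 and 153 CPM at 24 h. It fell by 1.42 ± 0.12 and then rose by 1.49 ± 0.12 on the log2 scale (edgeR adjusted p = 1.43e-07 and 7.73e-07), the reverse of the course of PDK1 and PDK3. The lactate and pyruvate transporter SLC16A1 fell by 1.10 ± 0.12 in the first step (edgeR adjusted p = 1.69e-06) and its relative SLC16A7 by 1.38 ± 0.21 (5.59e-05). PSAT1, a serine synthesis enzyme that makes alpha-ketoglutarate from glutamate, fell by 1.25 ± 0.18 (edgeR adjusted p = 3.07e-05). In the second step GLUL rose by 0.76 ± 0.11 and PCK2, which makes phosphoenolpyruvate from oxaloacetate, by 0.91 ± 0.16, and SLC16A7 fell again by 1.30 ± 0.24 (edgeR adjusted p = 1.36e-04, 4.11e-04 and 7.16e-04).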

How the data were processed

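Cytosolic RNA of 18 libraries was sequenced. Per the submitters' processing notes, the authors used STAR, DESeq2 and the genome build GRCh38.p13. Not given in the sources used here were tool versions, the counting program and whether it used strand. The deposited table holds the authors' raw counts per NCBI Gene ID, without normalization. Per the file headers, the authors' deposited tables give log2 fold changes and an adjusted p-value per gene at each time. Symbols came from RefSeq for 27745 Gene IDs, and 650 had none.

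Groups follow the labels. Columns of the 3 h libraries were matched through the time and replicate letter in the labelled library names, reading the treatment letter as at the later times. Genes were filtered with filterByExpr (minimum count 10, minimum total 15). edgeR 4.0.16 in R 4.3.3 was used with TMM factors and the legacy robust quasi-likelihood F test. The shear model had 18 libraries, 9 pools as blocks, a shear effect per time and 6 residual degrees of freedom; the static model had 9 libraries by time and 6. P-values were adjusted by Benjamini-Hochberg over all tested genes at 0.05, and a standard error is the log2 fold change over the root of F. CPM use TMM factors, except the summed nuclear-retained RNAs, which use total counts. An exact permutation test of 3 against 3 libraries that ignores pools cannot give a p below 0.1. One within pools has fewer arrangements still, so none was made per gene.

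Sheared and static libraries of 1 number share a pool per the design text. Their deviations from the group means correlated across genes at 0.0881 to 0.299 (3 h), -0.148 to 0.245 (12 h) and 0.379 to 0.504 (24 h). Sheared and static libraries of different numbers had -0.242 to 0.130, -0.385 to 0.233 and -0.296 to -0.0924. The ranges were apart at 24 h and overlapped at 3 h and 12 h, and at 12 h the pairing was not visible in these correlations. Between replicates of a group, chi-square over its degrees of freedom was 4.30 to 134, above counting error. The members and lists were chosen with earlier results of these data known. All 36 members are accounted for; statistics are given for members past the threshold and the 3 nearest to it in each comparison, and for the leading called genes of the second list. Some genes of the marker list and the second list are not reported here. Alternatives were DESeq2 1.42.0, RLE factors, no filter, no pool term, the libraries of 1 time alone, and leaving out each pool or static library. The fits were tested on simulated data. For low counts, counting error and the spread between pools were not separated.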

Additional observations from a re-analysis of the deposited data

How the results depend on the processing

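No called result of the 36 genes reversed its direction under the alternatives run. With no replicate block, 0 members were higher and 1 (IDH1) was lower at 12 h, and 0 were higher at 24 h, where the paired fit had 1, 2 and 5. At 24 h the number higher was 10 with DESeq2, 8 with RLE factors, 9 without the low-count filter and 0 in the libraries of that time alone. Over all genes these settings called 1575 of 13439, 1447 of 15189, 1569 of 21950 and 481 of 14127 higher. At 12 h 2 members were higher with no filter and 2 in the libraries of that time alone, beside 1296 of 21950 and 1162 of 14465 genes. In the 3 h libraries alone 2 members were higher and 1 lower, beside 816 and 650 of 14470 genes. DESeq2 and no filter each called 1 lower shear effect at 12 h than at 3 h (IDH1). In static cells from 12 h to 24 h, group means of all 18 libraries gave 3 higher and 3 lower (DLAT, IDH3A, IDH3G and GLUD1 were lost). From 3 h to 12 h they gave 6 and 9 (PC, CS, SUCLG1 and SLC25A11 were lost), no filter lost PC and SLC25A11, and a replicate block across times changed the calls of SLC25A11, DLD and PDP1 from 3 h to 12 h and of DLD from 12 h to 24 h. Leaving out 1 pool gave 0 to 3 higher and 1 to 2 lower at 12 h, 0 to 7 higher and 1 to 2 lower at 24 h, 0 at 3 h, and 0 to 1 lower for 12 h against 3 h. Leaving out 1 static library gave 5 to 8 higher and 10 to 17 lower for 12 h over 3 h, and 5 to 7 higher and 2 to 7 lower for 24 h over 12 h. Over all genes, the number higher and lower went from 170 and 52 to 58 and 6 at 3 h with no replicate block, from 956 and 691 to 183 and 137 at 12 h, and from 1387 and 1225 to 593 and 320 at 24 h. The causes were not tested. PDK4 had the largest standard error of the 36 in each of the 3 shear comparisons.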
